A study of Rattus norvegicus with 9 samples.

Results

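Rat lung after 90 days of exposure to fine particulate matter (PM2.5) was compared with control lung. The comparison took in 6 of the 9 arrays of the series: the 3 whose titles name PM2.5 exposure and the 3 whose titles name a control. All came from male Wistar rats with a stated age of 6 to 8 weeks, which is less than the exposure and so is not the age at sampling. The control rats inhaled NS for 90 days, a short form not explained in the labels, and the PM2.5 group is labelled a model of chronic obstructive pulmonary disease (COPD). PM2.5 replicates 1, 2 and 3 were archived on days 90, 91 and 92, and all 3 control lungs on day 90. The labels call the arrays biological replicates but tie no array to a named animal. The particle source and dose are not given in the sources used here. The other 3 arrays, from cigarette smoke (CS) exposed lung, entered only a comparison of the exposures. Total RNA of ground whole lung was hybridised to a custom 1-colour Agilent array.

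PM2.5 is the fraction of airborne particles small enough to reach the small airways and alveoli, where macrophages and epithelial cells take the particles up. Adsorbed metals and aromatic compounds are known to provoke oxidative stress, induction of xenobiotic-metabolising enzymes and release of inflammatory cytokines. Long exposure is a risk factor for COPD, in which small airways narrow and alveolar walls are lost.

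Each array carried 38802 probes with a deposited value besides the control probes, and 37767 of them were tested, those with signal well above background on every array of the PM2.5 group, the control group or both. The start of the probe name gives the class: 27831 tested probes began with ASRN6AP, 5284 with ASRNV, 3632 with ASRN6LNC, 838 with uc, 102 with ASSPINKEIN, 48 with A_ and 32 with CUST. The 48 A_ probes are Agilent catalogue probes, each spotted 10 times. Of these, 30 matched a RefSeq symbol through the systematic name, 29 of them protein-coding genes and 1 a long noncoding RNA gene, LOC108352165. The gene results therefore rest on 1 probe per gene, and the other classes carry names without gene symbols. None of 32 lung cell markers looked for was among the named probes, so the tissue label could not be checked. In whole lung, fewer cells of a type and less RNA per cell cannot be told apart.

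The 2 groups differed in technical measures as well as in exposure. Slides are numbered here by scan time, and arrays that share a scan time are taken as 1 slide. The control arrays all lay on slide 4 by this rule and were scanned on the second scan day. PM2.5 arrays 1 and 2 lay on slide 2 and PM2.5 array 3 on slide 1, and both slides were scanned on the earlier scan day. Control status therefore cannot be told apart from slide or scan day. Before normalization, the 75th percentile of the signal was 158, 173 and 257 on PM2.5 arrays 1, 2 and 3, and 333, 337 and 325 on the control arrays. The ratio of that percentile to the median signal was 3.27, 2.79 and 3.77 on the PM2.5 arrays and 4.72, 4.61 and 4.47 on the control arrays, so the signal range was narrower under PM2.5. The median SD of a probe was 0.20 log2 units among PM2.5 arrays and 0.07 among control arrays, and the PM2.5 SD was the larger for 84.8% of probes. Between 2 arrays of a group, the robust SD of the difference was 0.105 to 0.133 among control arrays, 0.277 to 0.395 among PM2.5 arrays and 0.239 to 0.356 among CS arrays. Whether the 3 control arrays come from 3 separate lungs could not be checked in the files, and if they do not, the p-values against control measure a spread that is partly technical. The 10 E1A spike-in control probes read a median of 0.24 higher on the PM2.5 arrays (range −0.10 to 0.31), and 3 of them had arrays without overlap. Some other control probes differed more, also without overlap and in both directions. Examples are eQC-39 (−1.32), GE_BrightCorner (−0.93), eQC-40 (0.59) and DCP_1_0 (0.63). The part of these differences in the results was not tested. Levels below are the authors' log2 values, which can be compared between arrays for 1 probe but not between probes.

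The PM2.5 lungs differed from the control lungs at 11571 of 37767 probes, 30.6% of those tested (limma, Benjamini-Hochberg adjusted p below 0.05). Of all tested probes, 15.0% (5670) were higher and 15.6% (5901) were lower in PM2.5 lung. With scanner signals scaled to their 75th percentile, 22059 probes passed (58.7%), 18275 higher and 3784 lower, and the median change over all probes moved from 0.07 to 0.51 on the log2 scale. Centring on the median passed 33.5% of probes, 4827 higher and 7753 lower. Quantile normalization of the scanner signal passed 30.4%, and normexp background correction with quantile normalization 29.9%. Probes that passed on the authors' values and under all 4 scanner scalings numbered 2093 higher and 3632 lower. The fits assume 1 common variance per probe for both groups, although the SD was mostly larger among PM2.5 arrays. All these counts take the control arrays as 3 independent lungs. When they were instead averaged and counted as 1 sample, 901 probes (2.39%) passed, 292 higher and 609 lower. With slide as a random block, 4806 (12.7%) passed. No slide held arrays of both groups, so this block cannot separate slide from exposure.

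Among the 29 named protein-coding genes, 13 fell, 3 rose and 13 did not pass, against the 30.6% of all probes that passed. The falls included the xenobiotic enzymes Cyp2e1 and Nat1, the pyruvate and lactate enzymes Pdk3 and Ldha, the inflammasome sensor Nlrp3, and 4 ubiquitin ligases or their adaptors. The rises were Enpp1, Napepld and Fgf2. The gene lists used below were chosen with earlier results of these data known, so a count within a list is not a result about that list. The arrays of the groups did not overlap for 22 of the 29 genes, against 49.0% of all probes (26.5% with PM2.5 higher and 22.5% with PM2.5 lower). The median change was −0.28 over the 29 genes and 0.07 over all tested probes. These genes are mostly bright. When the tested probes are ranked by mean level and cut into 10 equal bands, 19 of the genes lie in the upper 4 bands, and 11 of those 19 passed, against 46.2% of all probes there. With the control arrays counted as 1 sample, limma passed none of the named genes. With slide as a random block, which cannot separate slide from exposure here, 7 of the 29 passed, against 12.7% of all probes. These were Cyp2e1, Enpp1, Ldha, Nlrp3, Pdk3, Ppp2r2b and Ptk2b. The same 7 passed without control array 1 or without control array 3, and without control array 2 Napepld passed as well. Of all 37767 probes, 6279, 6209 and 6566 passed without control array 1, 2 and 3.

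**Figure D1:**
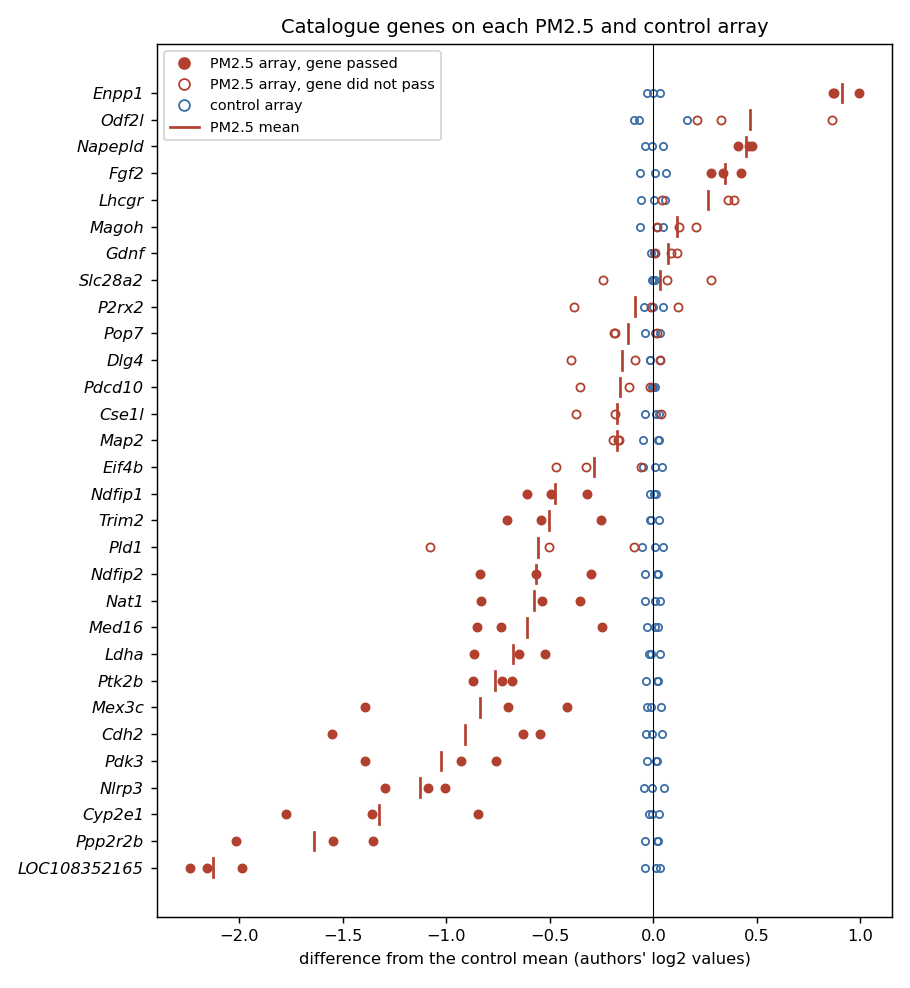
The log2 level of the named catalogue genes on each PM2.5 array minus the control mean is plotted by gene, with control arrays as blue open circles, PM2.5 arrays as red points (filled where the gene passed) and the PM2.5 mean as a red bar. Control points lie near 0 for most genes, PM2.5 points spread more widely, and the PM2.5 points of LOC108352165 and Ppp2r2b lie lowest.

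For the largest fall and for genes that moved each way, the 250 bases before the annotated start are shown, read from RefSeq (GRCr8, plus strand), so that the promoter can be set beside the values. LOC108352165 (chr10:105057381-105057630) had the largest fall of a named gene. Cyp2e1 (chr1:205269717-205269966) and Napepld (chr4:14253010-14253259) were chosen after their values were seen. Capitals mark matches on either strand to the motifs searched: TATAAA, the aryl hydrocarbon receptor core GCGTG, the AP-1 motif TGANTCA and the antioxidant response element core TGACNNNGC.
LOC108352165: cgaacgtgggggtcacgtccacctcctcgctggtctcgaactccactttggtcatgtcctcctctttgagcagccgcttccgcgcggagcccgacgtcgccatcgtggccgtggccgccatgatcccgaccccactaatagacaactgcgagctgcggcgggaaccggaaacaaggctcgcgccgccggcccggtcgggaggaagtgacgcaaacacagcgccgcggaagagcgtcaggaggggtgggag
Cyp2e1: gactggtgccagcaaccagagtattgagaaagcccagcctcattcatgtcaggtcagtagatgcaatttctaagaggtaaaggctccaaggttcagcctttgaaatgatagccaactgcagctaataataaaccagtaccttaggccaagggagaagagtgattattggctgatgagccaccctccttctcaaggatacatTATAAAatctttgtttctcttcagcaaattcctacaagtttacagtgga
Napepld: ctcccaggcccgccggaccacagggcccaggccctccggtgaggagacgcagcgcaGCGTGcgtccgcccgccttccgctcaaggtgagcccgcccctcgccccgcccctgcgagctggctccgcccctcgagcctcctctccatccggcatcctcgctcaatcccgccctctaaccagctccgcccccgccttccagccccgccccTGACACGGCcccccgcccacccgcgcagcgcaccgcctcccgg

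The LOC108352165 stretch was 66.8% G or C and held none of the 4 motifs. The Cyp2e1 stretch was 42.8% G or C and held TATAAA at −49 to −44 from the start. The Napepld stretch was 77.2% G or C and held GCGTG at −194 to −190 and TGACACGGC, a match to TGACNNNGC, at −43 to −35. Among 33469 RefSeq promoter stretches of this length, 12.9% held TATAAA, 25.9% GCGTG, 6.34% TGANTCA and 10.1% TGACNNNGC. Of the 22 catalogue genes with an entry, 4, 9, 2 and 2 held these motifs in the same order. A match to letters is a description and does not show binding.

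The long noncoding RNA LOC108352165 (probe target XR_001840348) had levels of 3.90, 3.81 and 4.06 on PM2.5 arrays 1, 2 and 3 and of 6.08, 6.06 and 6.01 on control arrays 1, 2 and 3. The PM2.5 arrays were all far below the control arrays. The log2 change was −2.13 (SE 0.101), a 4.37-fold lower level, with a limma adjusted p of 3.4e-05. It also passed with the control arrays counted as 1 sample (adjusted p = 0.014). The size depended on the scaling, with changes of −1.54 under 75th percentile scaling and −0.74 under normexp background correction.

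Both xenobiotic enzymes fell, as did 15.6% of all tested probes. Cyp2e1 (NM_031543), a cytochrome P450 that oxidises ethanol and small solvents and generates reactive oxygen, had levels of 10.57, 9.64 and 10.06 on the PM2.5 arrays and 11.41, 11.40 and 11.44 on the control arrays. PM2.5 array 2 was lowest, and the groups did not overlap. The log2 change was −1.33 (SE 0.216, adjusted p = 0.00389). Nat1 (NM_053853), an arylamine N-acetyltransferase, had levels of 9.24, 8.76 and 9.06 against 9.63, 9.60 and 9.55, a change of −0.58 (adjusted p = 0.0169). The Nat1 call was lost without any 1 control array.

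The enzymes at the branch between pyruvate oxidation and lactate fell too. Pdk3 (NM_001106581) is a kinase that switches off pyruvate dehydrogenase. Its levels were 7.03, 6.40 and 6.86 on the PM2.5 arrays and 7.81, 7.81 and 7.76 on the control arrays, without overlap, and its change was −1.03 (SE 0.163, adjusted p = 0.00357). Ldha (NM_017025), the lactate dehydrogenase subunit that favours lactate formation, had levels of 11.26, 10.92 and 11.14 against 11.82, 11.77 and 11.76. All PM2.5 arrays were again lower, with a change of −0.68 (adjusted p = 0.00428).

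Nlrp3 (NM_001191642) encodes the sensor of the inflammasome that activates caspase-1 and matures interleukin-1β. Its levels were 4.45, 4.25 and 4.53 on the PM2.5 arrays and 5.59, 5.53 and 5.50 on the control arrays. All 3 PM2.5 arrays lay below the control arrays, and neither group spread far. The change was −1.13 (SE 0.107, adjusted p = 0.000418) on the authors' values, −0.53 under 75th percentile scaling and −0.38 under normexp.

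The 4 ubiquitin ligases and adaptors all fell by less than 2-fold, where 15.6% of all tested probes fell. Mex3c (NM_001107377), an RNA-binding ubiquitin ligase, had levels of 6.67, 5.69 and 6.39 on the PM2.5 arrays and 7.08, 7.06 and 7.13 on the control arrays, a change of −0.84 (adjusted p = 0.0315), −0.53 under 75th percentile scaling and −0.49 under normexp. The lowest level was on PM2.5 array 2. Ndfip1 and Ndfip2, membrane adaptors that activate Nedd4-family ligases, changed by −0.47 (adjusted p = 0.0137) and −0.57 (adjusted p = 0.0223), and the ligase Trim2 changed by −0.50 (adjusted p = 0.0249). All 4 calls were lost with any control array left out and with slide as a random block.

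Of the 3 adhesion and junction genes, 2 fell, against 15.6% of all tested probes. Ptk2b (NM_017318), the calcium-sensitive focal adhesion kinase Pyk2, had levels of 7.16, 7.30 and 7.35 on the PM2.5 arrays and 8.05, 8.05 and 7.99 on the control arrays. The groups were clearly apart, with a change of −0.76 (SE 0.0949, adjusted p = 0.00125). Cdh2 (NM_031333), the mesenchymal cadherin N-cadherin, had levels of 6.36, 5.36 and 6.28 against 6.95, 6.90 and 6.87, a change of −0.91 (SE 0.254, adjusted p = 0.0324) and of −0.58 under normexp. PM2.5 array 2 was far below the other PM2.5 arrays, and the call was lost without any 1 control array. Pdcd10, a scaffold of endothelial junctions, changed by −0.16 and did not pass (adjusted p = 0.304).

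Neuron-enriched genes gave 1 fall. Ppp2r2b (NM_022209), a regulatory subunit of protein phosphatase 2A, had levels of 4.74, 5.21 and 5.40 on the PM2.5 arrays and 6.78, 6.78 and 6.72 on the control arrays. No PM2.5 array reached the control range, and the change was −1.64 (SE 0.169, adjusted p = 0.000579), or −0.83 under normexp. The microtubule-associated Map2 (−0.18) and the synaptic scaffold Dlg4 (−0.15) did not pass, and both changed sign under 75th percentile scaling. Among RNA processing, transcription and translation genes, the Mediator subunit Med16 fell by 0.61 (adjusted p = 0.0265), while the initiation factor Eif4b (−0.28, adjusted p = 0.123) and the ribonuclease P subunit Pop7 (−0.12, adjusted p = 0.393) did not pass. The Med16 call was lost without PM2.5 array 1 or any 1 control array.

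The 3 rises came from different groups. Enpp1 (NM_053535) is an ectoenzyme that splits extracellular ATP into AMP and pyrophosphate, an inhibitor of mineralisation. Its levels were 10.47, 10.59 and 10.46 on the PM2.5 arrays and 9.59, 9.62 and 9.57 on the control arrays. The PM2.5 arrays were close to each other and all higher, with a change of 0.91 (SE 0.09), or 1.88-fold, and an adjusted p of 0.000492. The nucleoside transporter Slc28a2 (0.03) and the ATP-gated channel P2rx2 (−0.09), also listed under extracellular purines, did not pass, and their signs turned under median centring, that of P2rx2 also under 75th percentile scaling.

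Napepld (NM_199381), a phospholipase D that makes N-acylethanolamines such as anandamide, had levels of 4.90, 4.89 and 4.83 on the PM2.5 arrays and 4.42, 4.47 and 4.39 on the control arrays. The groups did not overlap and the change was 0.45 (SE 0.0871, adjusted p = 0.00816), with 1.07 under 75th percentile scaling and 0.14 under normexp (adjusted p = 0.0479). Pld1, which hydrolyses phosphatidylcholine, changed by −0.56 and did not pass (adjusted p = 0.105). Fgf2 (NM_019305), a growth factor for fibroblasts, smooth muscle and endothelium, had levels of 4.58, 4.66 and 4.51 against 4.17, 4.24 and 4.30. All PM2.5 arrays were higher, by 0.35 (SE 0.0933, adjusted p = 0.0287), with 0.99 under 75th percentile scaling and 0.08 under normexp. The Fgf2 call was lost under normexp background correction (adjusted p = 0.236), with a replicate block (0.0926), with all 9 arrays in 1 fit (0.0601) and without any 1 control array. Gdnf (0.07), a neurotrophic factor, and Lhcgr (0.27), the luteinising hormone receptor, did not pass. The remaining genes did not pass. These were the centrosomal Odf2l (0.47, adjusted p = 0.0909), the nuclear export receptor Cse1l (−0.17) and the exon junction protein Magoh (0.12). The Magoh sign turned under median centring.

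Other scalings passed further named genes and moved the size of many changes. Under 75th percentile scaling, Gdnf (0.67, adjusted p = 0.0166), Lhcgr (0.88, adjusted p = 0.0334) and Odf2l (0.59, adjusted p = 0.0253) also passed, all higher. Under median centring, Pld1 (−1.03, adjusted p = 0.0247), Eif4b (−0.70, adjusted p = 0.0104), Pdcd10 (−0.52, adjusted p = 0.0215) and Pop7 (−0.52, adjusted p = 0.0145) also passed, all lower. Median centring moved the bright genes down, with Enpp1 at 0.49, Ldha at −1.04, Ptk2b at −1.16, Nat1 at −1.02, Med16 at −0.97, Ndfip1 at −0.84, Ndfip2 at −0.96 and Trim2 at −0.95, and it gave Fgf2 0.54.

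PM2.5 array 2 had the lowest level for 10 of the 13 genes that fell. Over all 11571 probes that passed, it was the array farthest from the control mean for 5446, against 3067 for PM2.5 array 1 and 3058 for PM2.5 array 3. Leaving it out, 11209 probes passed.

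Of the 18 catalogue probes without a matched symbol, 2 rose and 3 fell. Of all tested probes, 15.0% rose and 15.6% fell. The probe for XR_146859 had levels of 12.95, 12.49 and 12.67 on the PM2.5 arrays and 11.27, 11.31 and 11.35 on the control arrays, a change of 1.39 (SE 0.132, adjusted p = 0.000412). The probe for ENSRNOT00000020272.7 had levels of 8.51, 8.15 and 8.19 against 10.02, 9.98 and 9.99, a change of −1.71 (SE 0.12, adjusted p = 0.000142). In both cases every PM2.5 array was on the same side of all control arrays. TC643113 changed by −1.46 (adjusted p = 0.000745), ENSRNOT00000075517.3 by −0.62 (adjusted p = 0.00674) and XM_008766218 by 0.30 (adjusted p = 0.0389), with the opposite sign under median centring (−0.057). Once control arrays were pooled into 1 sample, the 2 catalogue probes that passed were LOC108352165 and ENSRNOT00000020272.7.

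The share of probes that passed differed between classes, and so did their signal levels. It was 33.5% in ASRN6AP (4668 higher, 4653 lower), 22.4% in ASRNV (457 higher, 727 lower), 23.4% in ASRN6LNC (449 higher, 400 lower) and 20.0% in uc (68 higher, 100 lower). The lowest 3 of the 10 bands of signal level held 21.0% of the ASRN6AP probes, 58.1% of ASRNV, 47.4% of ASRN6LNC and 75.7% of uc. Within the lowest 3 bands the shares that passed lay closer together, at 14.7% for ASRN6AP, 14.2% for ASRNV, 12.8% for ASRN6LNC and 15.1% for uc. In the top 3 bands they were 47.9%, 51.1%, 51.2% and 51.1% in the same order. No test was run between classes, because probes of an array are not replicates.

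**Figure D2:**
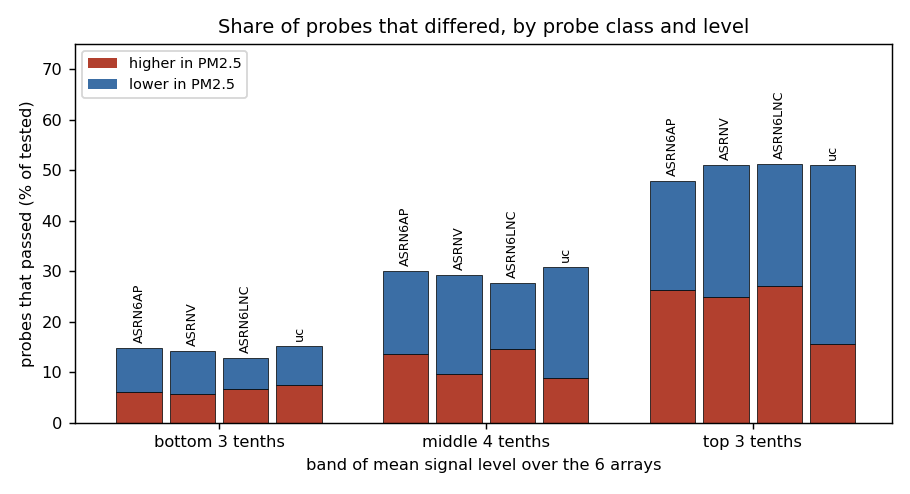
The percentage of tested probes that passed is plotted by probe class split into higher (red) and lower (blue) in PM2.5 lung, at 3 signal levels, the lowest 3, middle 4 and top 3 of the 10 bands. The share rises with level in ASRN6AP, ASRNV, ASRN6LNC and uc, from 12.8% to 15.1% at the lowest level to 47.9% to 51.2% at the top.

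The split between higher and lower at matched level was uneven in some classes, again with no test. In the middle 4 bands, 9.65% of ASRNV probes were higher and 19.7% lower, whereas ASRN6LNC had 14.7% higher and 13.0% lower. In the top 3 bands, uc probes had 15.6% higher and 35.6% lower, but only 45 uc probes lie there. For 373 uc elements probes of both orientations were tested. Both passed for 29 of them, 6 with both higher, 17 with both lower and 6 with opposite directions, and 1 of the 2 passed for 100. Of all uc probes tested, 20.0% passed. The ASSPINKEIN class stood at 20.6% passed, 18 higher and 3 lower, and at 87.3% under 75th percentile scaling. Catalogue probes passed at 45.8%, 5 higher and 17 lower. Over all tested probes the share was 30.6%, with 15.0% higher and 15.6% lower, and 58.7% under 75th percentile scaling. The median level was 8.50 for catalogue probes and 6.10 for all tested probes.

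Across the 10 bands the share that passed was 12.3% in the dimmest, 25.9% in the fifth, 49.1% in the ninth and 47.3% in the brightest. The median change in the authors' values stayed between 0.02 and 0.09 in all 10 bands. Under 75th percentile scaling it ran from 0.81 in the dimmest band to 0.03 in the eighth, and under median centring from 0.36 to −0.42 in the same bands. The direction of small changes in dim and bright probes therefore moved with the scaling, although no probe that passed on the authors' values passed with the opposite sign under any of the 4 scanner scalings.

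**Figure D3:**
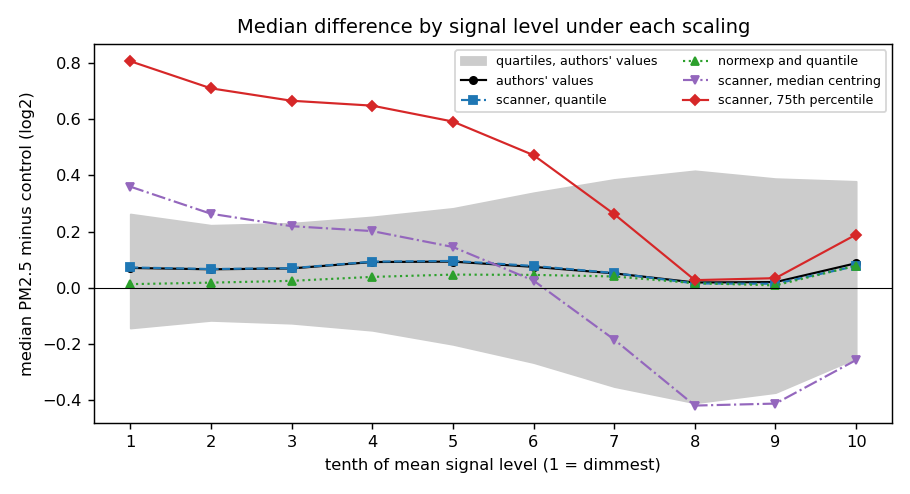
The median log2 change of PM2.5 against control is plotted against the band of signal level for the authors' values and the scanner scalings. The authors' values, with their quartiles in grey, and both quantile settings stay near 0, while 75th percentile scaling and median centring slope down to the eighth band and turn up in the brightest.

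Large changes were fewer. At least 2-fold and passed were 2408 probes, 6.38% of those tested, 765 higher and 1643 lower. On all 3 PM2.5 arrays the level was at least 2-fold above the control mean for 461 probes and at least 2-fold below it for 1039. The median size of the change was 0.63 among probes that passed and 0.18 among the others.

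**Figure D4:**
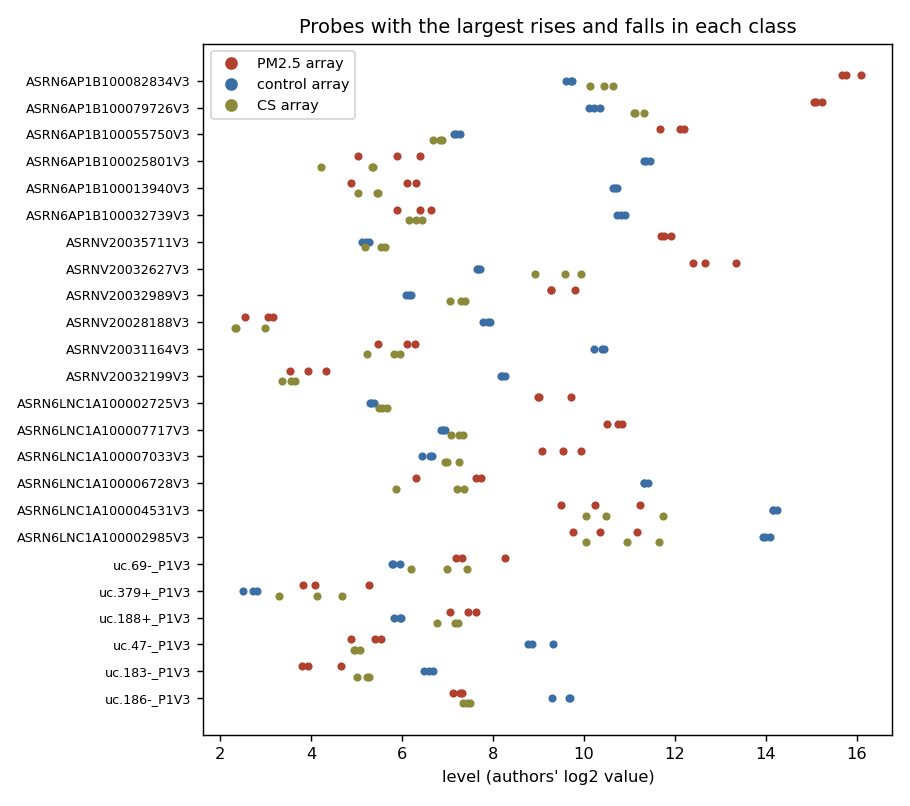
The log2 level on each PM2.5, control and CS array is plotted for the 24 probes with the largest rises and falls in the ASRN6AP, ASRNV, ASRN6LNC and uc classes. PM2.5 and control points are separate for each probe because only probes without overlap of these groups were picked. For most falls the CS points lie near the PM2.5 points.

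The largest rise was that of ASRNV20035711V3, with levels of 11.69, 11.77 and 11.92 on the PM2.5 arrays, 5.29, 5.11 and 5.20 on the control arrays and 5.18, 5.62 and 5.53 on the CS arrays. It was high on the PM2.5 arrays alone, 96.6-fold above control (log2 change 6.59, SE 0.104, adjusted p = 1.24e-06). ASRN6AP1B100082834V3 had levels of 15.77, 16.10 and 15.69 against 9.71, 9.62 and 9.74 in control lung, a change of 6.16. ASRN6LNC1A100002725V3 had levels of 9.02, 9.73 and 8.99 against 5.38, 5.30 and 5.32, a change of 3.91. The files name no gene for these probes. The largest uc rise, uc.69-_P1V3, was 1.76 (adjusted p = 0.00297). The uc.379+_P1V3 probe was well above background on 1 of 3 control arrays and entered the test through the PM2.5 arrays. Its difference of 1.71 was 0.27 under normexp and did not pass there (adjusted p = 0.107).

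The largest fall was that of ASRN6AP1B100025801V3, with levels of 5.03, 5.89 and 6.39 on the PM2.5 arrays, 11.37, 11.46 and 11.32 on the control arrays and 4.23, 5.36 and 5.33 on the CS arrays. It was high on the control arrays alone, and 48.9-fold lower in PM2.5 lung (log2 change −5.61, SE 0.31, adjusted p = 6.22e-05). ASRN6LNC1A100006728V3 had levels of 6.31, 7.63 and 7.73 against 11.33, 11.34 and 11.42, a change of −4.14. uc.47-_P1V3 had levels of 4.89, 5.54 and 5.41 against 8.77, 8.86 and 9.32, a change of −3.71. ASRNV20028188V3 was well above background on 2 of 3 PM2.5 arrays and entered the test through the control arrays. Its PM2.5 levels of 2.56, 3.06 and 3.16 lay near the lowest levels measured above background on these arrays, 2.37, 2.40 and 2.48, and its difference of −4.94 was −2.12 under normexp. Normexp also moved uc.183-_P1V3 from −2.46 to −1.03, ASRNV20032199V3 from −4.30 to −2.32 and uc.69-_P1V3 from 1.76 to 1.16. The 24 probes were picked for passing on these same arrays without overlap, with a sign that held under every scanner scaling. Passing in further fits of these arrays is therefore no independent check. All of them passed with each array left out, and 23 passed under normexp, all but uc.379+_P1V3. With the control arrays counted as 1 sample 21 passed, all but the 3 uc rises, and 18 passed when this was done under 75th percentile scaling.

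The exposures were compared in 1 limma fit of all 9 arrays. PM2.5 lung differed from CS lung at 3330 of 37794 probes, 8.81% of those tested, with 3.59% (1357) higher and 5.22% (1973) lower in PM2.5 lung. The count was 300 on the slide that holds PM2.5 arrays 1 and 2 and CS arrays 2 and 3. The 9 named ASRN6AP, ASRNV and ASRN6LNC rises all passed as higher in PM2.5 than in CS lung, with ASRNV20035711V3 at 6.35 (adjusted p = 1.63e-08). Of the 9 named falls in these classes, 8 were tested and none passed in this limma fit, with adjusted p from 0.234 to 0.995. The uc probes went otherwise. None of the 3 named uc rises passed against CS (0.72, adjusted p = 0.254 for uc.69-_P1V3, 0.35, adjusted p = 0.719 for uc.379+_P1V3 and 0.33, adjusted p = 0.323 for uc.188+_P1V3). Of the 3 named uc falls, uc.183-_P1V3 passed as lower in PM2.5 lung (−1.04, adjusted p = 0.0115). ASRN6AP1B100025801V3 differed between the exposures by 0.80 (adjusted p = 0.251). Missing the threshold does not show that the levels were equal. The named probes were picked on the same PM2.5 arrays against control, so these results are no independent check. The control arrays are not part of the PM2.5 against CS difference, though they share the estimate of spread. By class, 9.91% of ASRN6AP, 6.86% of ASRNV, 4.39% of ASRN6LNC and 4.81% of uc probes passed, and 0 of 102 ASSPINKEIN probes did.

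Among the named genes, Nlrp3 differed between PM2.5 and CS lung by −0.80, lower in PM2.5 lung (SE 0.112, adjusted p = 0.00195), with CS levels of 5.13, 5.36 and 5.15. Its CS arrays lay between the PM2.5 and the control arrays. Ptk2b differed by −0.70 (adjusted p = 0.00454), with CS levels of 8.07, 8.07 and 7.76 near the control levels. Enpp1 was higher by 0.52 (adjusted p = 0.0187), a call that was lost with the PM2.5 and CS arrays alone (adjusted p = 0.104). Cyp2e1 (−0.36, adjusted p = 0.426), Pdk3 (−0.06, adjusted p = 0.887) and Ldha (0.02, adjusted p = 0.953) did not pass.

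**Figure D5:**
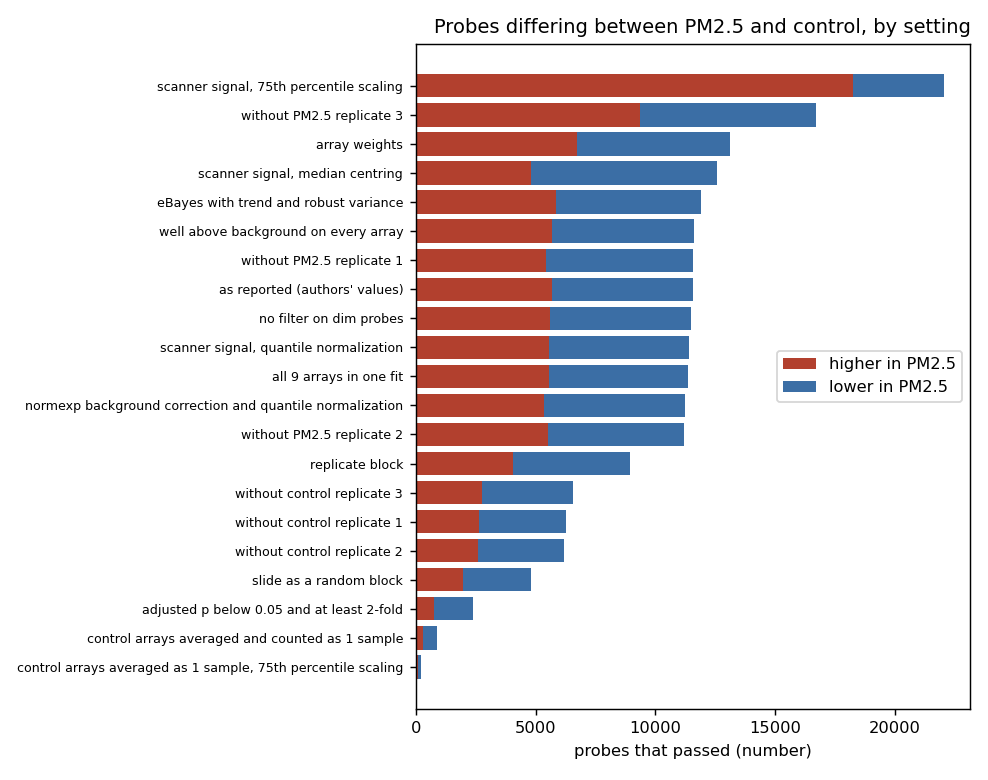
The number of probes that passed in PM2.5 against control is plotted for each processing setting, split into higher and lower. The counts run from 223 to 22059.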

How the data were processed

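Lung RNA was read on 1-colour arrays, 3 for PM2.5 and 3 for control, labelled biological replicates, with 3 CS arrays for 1 comparison. Per the file headers, Feature Extraction 11.0.1.1 gave background-subtracted intensity and other values, flags of 0 or 1 for signal well above background, in the deposited scanner files. The authors deposited 1 log2 value per probe; all 9 columns share a median of 6.03 and correlate with log2 scanner signal at 0.997 to 0.999, and how they were normalized is not given in the sources used here.

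These log2 values were fitted with limma 3.58.1 in R 4.3.3 (lmFit, eBayes, two-sided), on the 6 arrays for PM2.5 against control and on all 9 for PM2.5 against CS. Probes were tested if flagged well above background on every array of either group compared, and control probes were left out. A probe passed at a Benjamini-Hochberg adjusted p below 0.05 over all probes tested. An exact permutation test of 3 against 3 arrays cannot go below p = 0.1. The number of arrays limits the precision. The fit was tested on simulated data.

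Named genes are all catalogue probes with a symbol. Full values are given for the 6 largest rises and 6 largest falls that passed without overlap, or all where fewer passed, and for others by change. Up to 5 catalogue probes without a symbol are named, and the 3 largest rises and falls in each other main class. The class probes were taken from those that passed, whose arrays did not overlap and whose sign held under every scanner scaling. The members and lists were chosen with earlier results of these data known. Alternatives were 4 scanner scalings (75th percentile, quantile, median, normexp with an offset of 50 and quantile), other filters, variance models, slide and replicate blocks, control arrays averaged as 1 sample, a 2-fold threshold and each array left out. Probe positions are not given, since the build in the array header is older than GRCr8 of the RefSeq tables.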

Additional observations from a re-analysis of the deposited data

Results flagged for a closer look

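For 9 of the 48 catalogue probes (18.75%) the effect of PM2.5 differed from that of CS in the limma fit of all 9 arrays. The share over all tested probes was 8.81%. PM2.5 was lower than CS for LOC108352165 (−1.64, adjusted p = 2.62e-05), Nlrp3 (−0.80, adjusted p = 0.00195), Ppp2r2b (−0.78, adjusted p = 0.0161), Ptk2b (−0.70, adjusted p = 0.00454), ENSRNOT00000039569.6 (−0.64, adjusted p = 0.0132), Pop7 (−0.61, adjusted p = 0.00448) and TC643113 (−0.60, adjusted p = 0.0396). PM2.5 was higher for Enpp1 (0.52, adjusted p = 0.0187) and XR_146859 (2.20, adjusted p = 1.75e-05). In the limma fit against control, Pop7 (−0.12, adjusted p = 0.393) and ENSRNOT00000039569.6 (−0.13, adjusted p = 0.349) did not pass.

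On the slide that both exposures share, the differences were −1.74 for LOC108352165, −0.90 for Nlrp3, −0.96 for Ppp2r2b, −0.68 for Ptk2b, −0.76 for ENSRNOT00000039569.6, −0.54 for Pop7, −0.60 for TC643113, 0.65 for Enpp1 and 2.11 for XR_146859. The direction was the same for all 9, but these arrays also entered the fit that picked the probes, so this is no independent check. LOC108352165 and XR_146859 also passed there (adjusted p = 0.0178 for each), with 2 arrays per exposure. TC643113 passed in 1 of the 6 fits with 1 exposed array left out, Enpp1 in 4 and Ppp2r2b in 5, and the other 6 probes passed in all of them. With the PM2.5 and CS arrays alone, without the control arrays, 4 calls were lost: Ppp2r2b (adjusted p = 0.0759), ENSRNOT00000039569.6 (adjusted p = 0.0746), Enpp1 (adjusted p = 0.104) and TC643113 (adjusted p = 0.142). The same 4 did not pass under every scaling of the scanner signal.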

How the results depend on the processing

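For PM2.5 against control, 11571 probes passed on the authors' values. The count was 22059 under 75th percentile scaling, 4806 with slide as a random block, 901 when control arrays were averaged into 1 sample, 223 when that was done under 75th percentile scaling, and 2408 with a 2-fold threshold. Leaving out 1 array gave 6209 to 16730, with 6279, 6209 and 6566 without control array 1, 2 or 3. Probes that passed in all 6 of these fits numbered 5787. For PM2.5 against CS, 3330 passed, against 2133 under median centring, 1339 with the 2 groups alone, 300 on the shared slide and 735 with a 2-fold threshold, and 2331 to 3871 with 1 array left out. XM_008766218 reversed under median centring, to −0.057 (adjusted p = 0.766). The other settings for each comparison, with scanner quantile normalization, normexp, other filters and other variance models among them, left the count within 1.5 times of that on the authors' values. Without PM2.5 array 1, 2 or 3 the count against control was 11587, 11209 and 16730. The cause of these shifts was not tested, and the smaller fits also hold fewer arrays. Equal replicate numbers did not mark paired arrays (correlation of deviations −0.0267, 0.0247 and −0.123 for equal numbers, with −0.178 to 0.188 over all pairs), and a replicate block gave 8965 against control and 2443 against CS.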
